A study of Drosophila melanogaster with 30 samples.

Results

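The odorant-binding protein (Obp) genes of *Drosophila melanogaster* were taken as the rows of the count table whose symbol is Obp followed by a number. The rule found 51 genes of 14326. The related gene *lush*, which carries no such symbol, was not a member and served as a marker of chemosensory organs. RNA had been sequenced from whole bodies of flies that the study describes as 1-day-old males, with each library made from a pool of 5 flies. Group 1 held 2 libraries of w pink1RV control flies. Groups 2, 3 and 4 carried the pink1B9 null allele, which removes PINK1, a kinase that guards mitochondria and whose loss damages the flight muscles. Group 2 (8 libraries) came from mutants without any flying offspring. Groups 3 and 4 (10 libraries each) were offspring of the same parent pairs, unable to fly in group 3 and able to fly in group 4. The labels did not tie a group 3 library to its group 4 partner, and they did not say whether the pools of a group shared parents.

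Odorant-binding proteins are small secreted proteins with a pocket for hydrophobic molecules, held by disulfide bridges. In the antenna and in taste bristles, support cells release them into the lymph that bathes the sensory neurons, where they are thought to carry or buffer odorants and tastants in front of the receptors. Others are made in the male reproductive tract and passed on in the seminal fluid, or in fat body and glia. Minus-C members lack a cysteine pair of the classic fold, and Plus-C members have additional cysteines.

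Total counts per library ranged from 6434252 to 38330421, with a median of 19636778. The level of *Pink1*, the targeted gene, was 221 and 271 CPM (counts per 1000000 counts of a library, with library sizes scaled by the trimmed mean of M-values) in the controls and 42.5 to 101 CPM in the mutants, and the groups did not overlap. Library GC055057 of group 4 had a summed level of ovary markers of 6287 CPM, against at most 22.9 CPM in any other library. This is at odds with flies described as male, and the source of this RNA was not tested. For 6 libraries (3 of group 3, 3 of group 4) the label gives human skin as the tissue, although their counts are of fly genes. Of 16 midgut proteases of the Jon family, 10, 8 and 10 were lower in groups 2, 3 and 4 than in group 1, and of 8 eye markers 7, 8 and 8 were lower, with 0 higher. How far such shifts in body composition enter the fold changes below was not tested, and in whole-body RNA fewer cells of a type and less RNA per cell cannot be told apart.

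All 51 members were found in the BDGP6.54 annotation, with 29 on chromosome arm 2R, 12 on 3R, 6 on X and 2 each on 2L and 3L. *Obp50b* and *Obp50c* share 1648 bases of exon on the same strand, and their counts were equal in all 30 libraries. They are 1 measurement, although both are counted in the numbers, shares and medians of members below. *Obp57d* lies within exons of *Cpr57A* on the same strand over 1488 bases, which makes its counts uncertain. Together the members took 0.1825% to 0.4008% of the counts of a library. The group medians of this share were 0.2089% in group 1, 0.264% in group 2, 0.2783% in group 3 and 0.2947% in group 4.

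A few members made up most of the summed level per length. Per kilobase of exon, the mean level over all libraries was highest for *Obp56g*, a seminal fluid protein needed for the full response of females to mating, at 1297 CPM per kb. *Obp99c*, a Minus-C member of the body, followed at 1094 CPM per kb, and both together held 55.4% of the summed level per kb of all members. *Obp44a*, a glial fatty acid carrier, had 352 CPM per kb. *Obp51a*, another seminal fluid protein, had 342 CPM per kb and *Obp99b*, a fat body protein, 184 CPM per kb. These 5 members held 75.7% of the sum, and the first 10 held 88.2%. The order is mostly that of the mutants, which make up 28 of the 30 libraries. In the controls alone *Obp51a* had 58.2 CPM per kb and *Obp99b* 7.51 CPM per kb, and the places after *Obp56g* (1309), *Obp99c* (361) and *Obp44a* (304) were held by *Obp19d* (245) and *Obp56d* (108 CPM per kb). The best represented antennal member, *Obp19d*, ranked next over all libraries at 180 CPM per kb, in whole bodies where the antennae are a small fraction of the tissue. The order of neighbours such as *Obp44a* and *Obp51a* was within the spread over libraries. At the other end, *Obp56b* had 1 count in 1 library and none in the other 29.

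**Figure D1:**
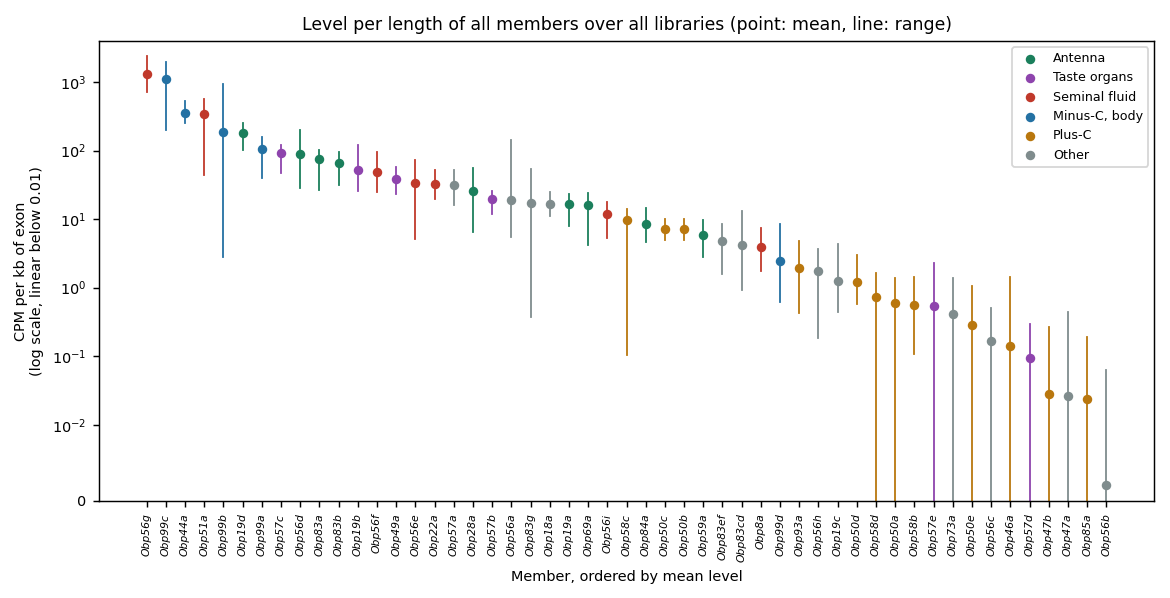
Level of each of the 51 members as CPM per kb of exon, as the mean over all 30 libraries (point) and the range over the libraries (line), coloured by the main site or class of the member. The axis is logarithmic above 0.01 and linear below. *Obp56g* and *Obp99c* stand at the top with 1297 and 1094 CPM per kb, and the lines of *Obp99b* and *Obp83g* are the longest among the members with counts in every library.

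After the filter on low counts, 43 members were tested and 8 were not (*Obp46a*, *Obp47a*, *Obp47b*, *Obp50e*, *Obp56b*, *Obp56c*, *Obp57d* and *Obp85a*). The edgeR quasi-likelihood test with Benjamini-Hochberg adjustment over all 13190 genes tested called 5 of the 43 in group 2 against group 1 (4 higher, 1 lower), where 20.2% of all genes were called (10.7% higher, 9.52% lower). In group 3 against group 1 it called 7 (6 higher, 1 lower), with 26.5% of all genes called (14.2% and 12.3%). In group 4 against group 1 it called 9 (8 higher, 1 lower), with 33.2% of all genes called (17.5% and 15.7%). Unless another tool is named, members and genes described as called, risen or fallen passed this test. The share of members called was 11.6%, 16.3% and 20.9%, below that of all genes in each comparison. This order rested on the control GC055041, since without it 13.3%, 15.6% and 15.6% of the members were called (6 of 45, 7 of 45 and 7 of 45), above the 5.15%, 5.81% and 8.28% of all genes. In a fit of groups 1 and 2 alone the shares were nearly level, at 11.9% of the members and 11.6% of all genes. At an unadjusted p under 0.05, 10, 13 and 13 members were past the line, against 35.4%, 40.1% and 43.8% of all genes. The median log2 fold change of the tested members was 0.05, 0.11 and 0.20 in groups 2, 3 and 4, against −0.00, −0.01 and 0.08 for all genes. The 3 comparisons share the same 2 controls. *Obp51a*, *Obp58c*, *Obp58d* and *Obp99c* rose and *Obp56a* fell in all 3, which makes 5 of 43 members, where 18% of all genes were called in one direction in all 3 (9.81% higher, 8.18% lower). In 4 of these (*Obp51a*, *Obp56a*, *Obp58c* and *Obp58d*) both controls lay outside the range of the 28 mutant libraries, as they did for 14.7% of all genes tested. Of the 43, *Obp57e*, *Obp58c*, *Obp58d* and *Obp93a* had both controls below the 0.509 CPM that a count of 10 makes at the median depth, so that they passed the filter only through mutant libraries.

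**Figure D2:**
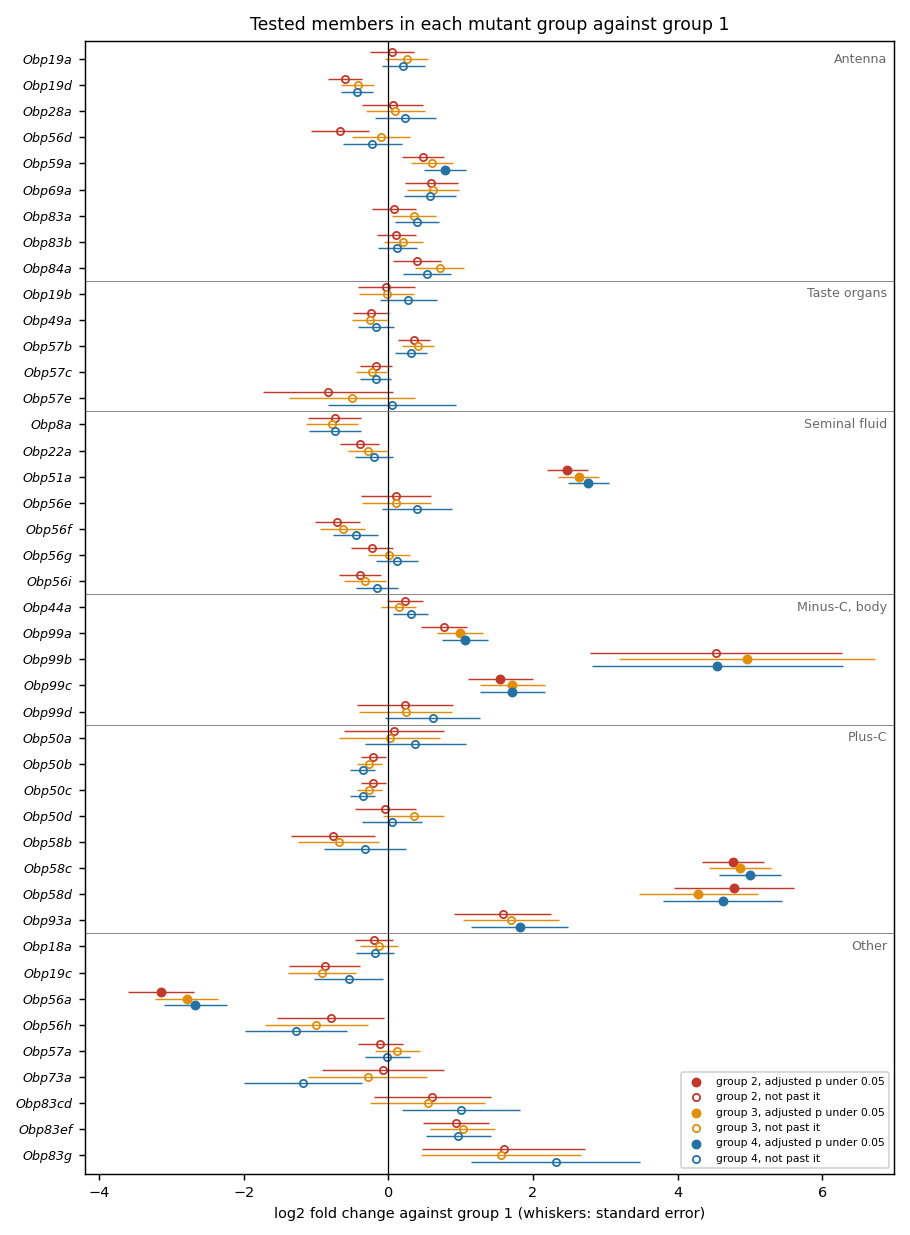
The log2 fold change of each of the 43 tested members in group 2 (red), group 3 (orange) and group 4 (blue) against group 1, with standard errors as whiskers, ordered by the main site or class. Filled points passed an adjusted p of 0.05, and the values of all 3 groups share the 2 control libraries. *Obp51a*, *Obp58c*, *Obp58d* and *Obp99c* lie to the right and *Obp56a* to the left in all 3 groups, and the long whiskers belong to *Obp99b*.

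Among the 9 members known from the antenna, 0, 0 and 1 were called in groups 2, 3 and 4 against group 1. Of all genes, 20.2%, 26.5% and 33.2% were called there. The list medians of the log2 fold change were 0.08, 0.25 and 0.23. The antennal members with an unadjusted p under 0.05 were *Obp19d* in group 2, *Obp59a* and *Obp84a* in group 3 and *Obp59a* in group 4. DESeq2 and limma-voom called the same numbers of antennal members as edgeR. *Obp59a*, which is needed for humidity sensing, had 5.03 and 2.86 CPM in the controls. The lowest, median and highest levels of the mutants were 4.21, 5.47 and 6.81 CPM in group 2, 3.36, 5.99 and 7.87 CPM in group 3 and 4.00, 6.71 and 9.84 CPM in group 4. The groups overlapped, and *Obp59a* was 1.71-fold higher in group 4 than in group 1 (log2 0.78 ± 0.29 SE, adjusted p = 0.040). Its call was lost without the 6 libraries labelled human skin (adjusted p = 0.078) and without the second control (adjusted p = 0.51). *Obp59a* also shares 224 bases of exon with *CG30259* on the opposite strand, and *CG30259* fell in all 3 mutant groups, by 2.01 to 2.13 on the log2 scale.

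The other 8 antennal members were not called in any mutant group. *Obp83a* and *Obp83b*, which act in the sensilla that detect pheromones, had log2 fold changes between 0.08 and 0.40, with standard errors of 0.27 to 0.30. The level of *Obp83a* was 64.7 and 57.0 CPM in the controls, 42.0 to 87.1 CPM in group 2, 26.1 to 100 CPM in group 3 and 49.2 to 101 CPM in group 4. *Obp19d*, found in both smell and taste organs, had 274 and 264 CPM in the controls and 112 to 265 CPM in the mutants, so that the groups touched at 1 library. Its log2 fold changes were −0.60, −0.43 and −0.43, with adjusted p of 0.060, 0.16 and 0.14.

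The levels of the antennal members moved from library to library with the markers of chemosensory organs (*Orco*, *Ir8a*, *Ir25a*, *Ir76b*, *Snmp1*, *lush*, *Os-C* and *a10*). Over the 28 mutant libraries, on log2(CPM + 1), the correlation with the sum of these markers had a median r of 0.79 over the 9 members and ranged from 0.37 (*Obp56d*) to 0.87 (*Obp83a*). In 8 of the 9 the permutation p stayed below 0.05 after adjustment over the 21 relations of members and organ markers tested. The permutations treated the 28 libraries as independent, although groups 3 and 4 came from the same parent pairs. For *Obp83a*, r was 0.87 and Spearman's rho 0.73, each with an adjusted p of 0.00011 or less by 100000 permutations, and r was 0.77 without the 2 libraries farthest from the median of the markers. Within groups 2, 3 and 4 the r of *Obp83a* was 0.86, 0.89 and 0.83. *Obp56d*, which is also made in taste organs, had an r of 0.37 (rho 0.39, adjusted p = 0.069 and 0.059). The marker sum was 117 and 128 CPM in the controls, 72.5 to 128 CPM in group 2, 67.3 to 132 CPM in group 3 and 87.5 to 136 CPM in group 4. Of the 8 markers, only *Snmp1* in group 2 was called, and it was lower.

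The taste members did not pass the test in any of the 3 comparisons with group 1. Of the 6, *Obp57d* was not tested, and edgeR, DESeq2 and limma-voom each called 0 of the other 5. Of all genes, edgeR called 20.2%, 26.5% and 33.2% in groups 2, 3 and 4. None of these 5 taste members had an unadjusted p under 0.05 by edgeR. *Obp57b* and *Obp57c* were among the steadiest of all members, with a coefficient of variation over the mutants of 17.9% and 18.6%. *Obp49a*, which dampens the response to sugar when bitter compounds are present, had 38.9 or 29.8 CPM in the controls and 18.03 to 44.3 CPM in the mutants. *Obp57e*, known in leg taste bristles from work on host plant acids, was near the limit of the counts, with 0 to 15 counts in a library.

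Of the 7 members known from seminal fluid, only *Obp51a* was called, in each mutant group, where 20.2%, 26.5% and 33.2% of all genes were called. The level of *Obp51a* was 17.5 and 28.8 CPM in the controls. In the mutants, the lowest, median and highest levels were 92.4, 121 and 185 CPM in group 2, 118, 139 and 173 CPM in group 3 and 93.0, 154 and 227 CPM in group 4. Every mutant library lay at more than 3 times the higher control. *Obp51a* was 5.57-fold, 6.20-fold and 6.79-fold higher in groups 2, 3 and 4 than in group 1 (log2 2.48 ± 0.28, 2.63 ± 0.28 and 2.76 ± 0.29 SE), with adjusted p of 6.3e-07, 1.8e-07 and 8.0e-08.

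None of the other 6 was called by edgeR with all libraries in the fit. limma-voom called *Obp8a* lower in group 4 (log2 −0.81, adjusted p = 0.045), and with groups 1 and 3 alone in the fit edgeR called *Obp8a* (−0.78, adjusted p = 0.031) and *Obp56f* (−0.63, adjusted p = 0.040) lower in group 3. *Obp56g* had 531 or 765 CPM in the controls and 350 to 1190 CPM in the mutants, with log2 fold changes of −0.23, 0.01 and 0.12. *Obp8a* and *Obp56f* had negative log2 fold changes in all 3 groups (−0.74 to −0.78 and −0.45 to −0.71), and neither passed the adjusted threshold with all libraries in the fit. The list median over the 7 was −0.40, −0.29 and −0.15. Of 55 tested seminal fluid proteins of a wider list, 0 rose and 14, 9 and 9 fell in groups 2, 3 and 4. The shares that fell were 25.5%, 16.4% and 16.4%, where 9.52%, 12.3% and 15.7% of all genes fell. In group 4 the share was thus close to that of all genes. Of 6 accessory gland markers 0 rose, and 2, 1 and 1 fell, with *Acp36DE* in each. Their sum was 4792 and 2978 CPM in the controls, 1473 to 2975 CPM in group 2, 1298 to 3557 CPM in group 3 and 1815 to 3953 CPM in group 4. The control with the higher sum of gland markers had the lower level of *Obp51a*. The part of gland RNA in the rise of *Obp51a* was not tested.

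Within the mutants, *Obp51a* moved with the gland markers. The r over the 28 mutants was 0.60 for *Obp51a* (rho 0.53, adjusted p = 0.00097 and 0.0069), 0.51 without the 2 farthest libraries, and 0.69, 0.54 and 0.61 within groups 2, 3 and 4. For *Obp56f* it was 0.76 (rho 0.72), for *Obp56g* 0.67 and for *Obp22a* 0.67. *Obp56e* had an r of 0.42 that fell to 0.12 without the 2 farthest libraries, so that its relation rests on them. *Obp56i* had an r of 0.31 with an adjusted p of 0.12, and 0.10, −0.11 and 0.78 within groups 2, 3 and 4. *Obp51a* sits inside the span of *hbs* (2R:15024375-15024839, minus strand, BDGP6.54), and *hbs*, a cell adhesion gene, had log2 fold changes of −0.27 to −0.42 and was not called. *CG43101*, the other tested gene within 20 kb, was called lower by edgeR in all 3 groups (log2 −1.13, −1.02 and −0.93, adjusted p = 0.011, 0.015 and 0.020).

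**Figure D3:**
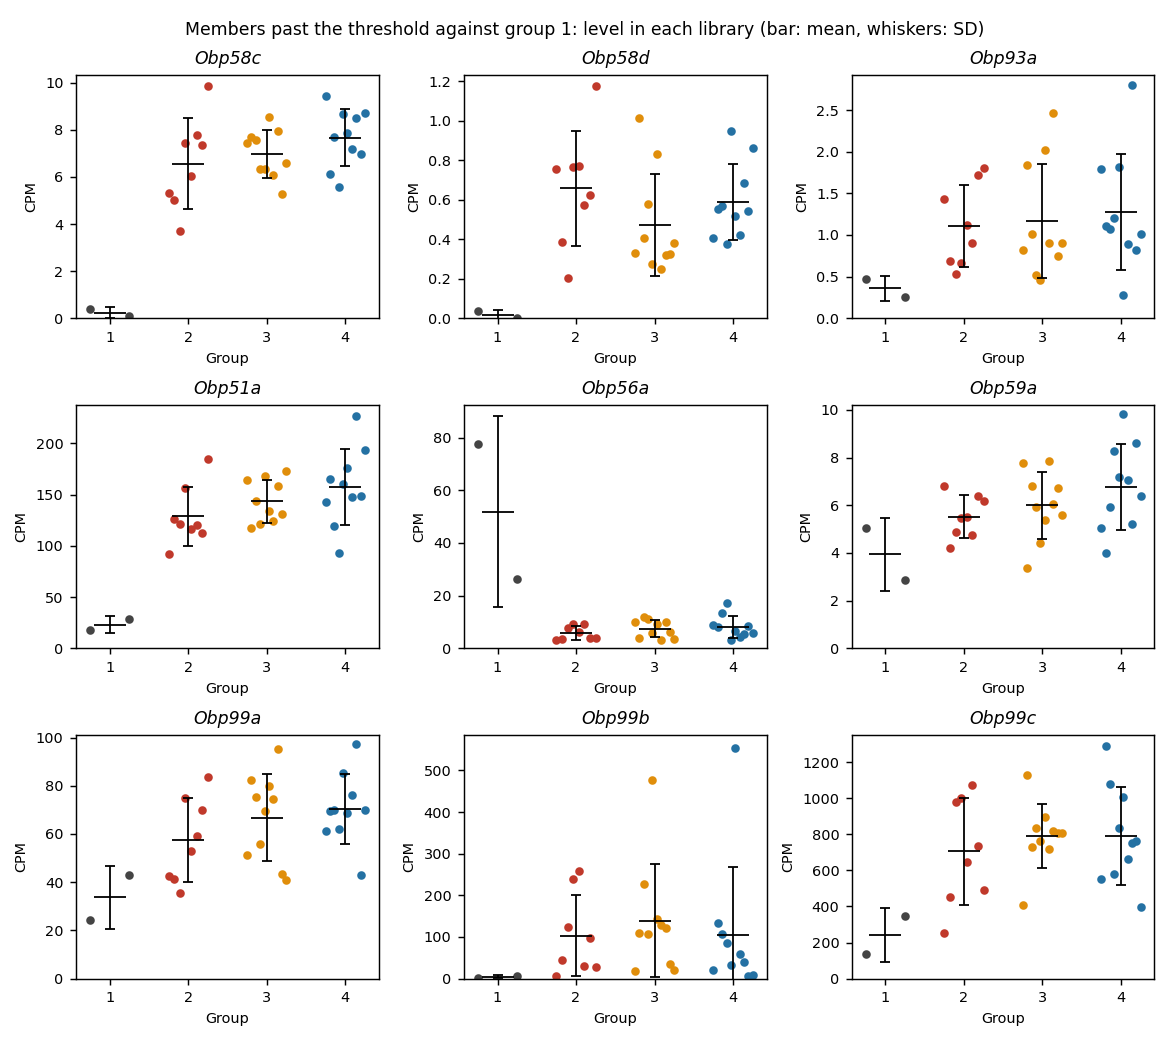
CPM of the 9 members called in at least 1 mutant group against group 1, with 1 point per library, the mean of each group as a bar and the SD as whiskers, on linear axes that start at 0 and cut whiskers there. For *Obp51a*, *Obp58c* and *Obp58d* every mutant library is above both controls, for *Obp56a* every mutant library is below them, and the other 5 members overlap with the controls.

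Among the 5 Minus-C members of the body, 1, 3 and 3 were called in groups 2, 3 and 4 against group 1, all of them higher, where 10.7%, 14.2% and 17.5% of all genes were called higher. DESeq2 called 3 of the 5 in each group, adding *Obp99a* (adjusted p = 0.049) and *Obp99b* (adjusted p = 0.0020) in group 2. The list medians of the log2 fold change were 0.77, 0.99 and 1.06. The called members, *Obp99a*, *Obp99b* and *Obp99c*, are clustered on 3R. The same cluster holds *Obp99d*, 1249 bases from *Obp99b*, which was not called in any group (log2 0.23, 0.24 and 0.61). *Obp99c* had 135 and 348 CPM in the controls. Its lowest, median and highest levels were 254, 691 and 1074 CPM in group 2, 409, 808 and 1127 CPM in group 3 and 396, 757 and 1292 CPM in group 4. Only group 2 reached below the higher control. *Obp99c* was 2.92-fold, 3.28-fold and 3.28-fold higher (log2 1.55, 1.71 and 1.71, SE 0.45), with adjusted p of 0.016, 0.0070 and 0.0055.

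*Obp99a* had 24.4 and 42.9 CPM in the controls. The lowest, median and highest levels of the mutants were 35.6, 56.0 and 83.5 CPM in group 2, 40.8, 72.0 and 95.4 CPM in group 3 and 43.0, 69.7 and 97.3 CPM in group 4. The higher control lay inside groups 2 and 3 and just under group 4. The log2 fold change was 0.77 ± 0.32, 0.99 ± 0.32 and 1.06 ± 0.32, with adjusted p of 0.082, 0.023 and 0.013. Without the control GC055040, the lower one for both genes, *Obp99a* and *Obp99c* were not called in any group: in group 4 the log2 fold change was 0.74 for *Obp99a* (adjusted p = 0.20) and 1.21 for *Obp99c* (adjusted p = 0.12).

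*Obp99b*, which is male-biased in the fat body of the head, had the highest coefficient of variation over the mutants of the tested members, at 114%. It had 1.69 and 7.24 CPM in the controls. In the mutants, the lowest, median and highest levels were 5.38, 71.8 and 258 CPM in group 2, 19.3, 115.2 and 478 CPM in group 3 and 5.57, 49.3 and 555 CPM in group 4. The highest mutant library was at 103 times the lowest one, and groups 2 and 4 overlapped with the higher control. *Obp99b* was 31.1-fold higher in group 3 (log2 4.96 ± 1.78 SE, adjusted p = 0.039) and 23.4-fold higher in group 4 (4.55 ± 1.73, adjusted p = 0.043), while the value in group 2 (4.53 ± 1.74) had an adjusted p of 0.063. The calls of *Obp99b* were lost in both groups when either control was left out (adjusted p = 0.16 to 0.23), and with limma-voom (adjusted p = 0.054 and 0.12).

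The level of *Obp99b* moved with the fat body markers (*apolpp*, the larval serum protein genes *Lsp1alpha*, *Lsp1beta*, *Lsp1gamma* and *Lsp2*, *Fbp1* and *Fbp2*). The r over the mutants was 0.77 (rho 0.76, adjusted p = 3e-05 and 0.00011), 0.68 without the 2 farthest libraries, and 0.63, 0.68 and 0.89 within groups 2, 3 and 4. The sum of these 7 markers was 706 and 2195 CPM in the controls, 1021 to 3403 CPM in group 2, 1292 to 3997 CPM in group 3 and 874 to 4014 CPM in group 4. In the controls these sums were mostly *apolpp*, which ranged from 696 to 2163 CPM there. Of the 7 markers, edgeR and limma-voom called only *Lsp2*, higher in all 3 groups. DESeq2 called all but *apolpp*, 6 of 7 in each group and all higher. *apolpp* went the other way, with log2 fold changes by edgeR of −0.36, −0.18 and −0.62 that were not called. The median log2 fold change of the 7 by edgeR was 5.31, 5.51 and 5.15, and 4, 4 and 5 of them had an unadjusted p under 0.05. *Fbp1* had 0.610 to 0.869 CPM in the controls and up to 1160 CPM in the mutants. The library highest in *Obp99b* within group 3 (GC055058) and that within group 4 (GC055061) had the highest marker sum of their groups. Without them *Obp99b* was called in groups 2, 3 and 4, with log2 4.51 ± 1.46 in group 3 (adjusted p = 0.029) and 3.62 ± 1.38 in group 4 (adjusted p = 0.046). The part of fat body RNA in the rise of *Obp99b* was not tested.

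Lower values were found for the other Minus-C members. The r with the fat body markers was 0.03 for *Obp99a* (adjusted p = 0.88), 0.11 for *Obp44a* (adjusted p = 0.59), 0.31 for *Obp99d* (adjusted p = 0.12) and 0.40 for *Obp99c* (adjusted p = 0.046). *Obp44a* had 356 or 298 CPM in the controls and 276 to 562 CPM in the mutants, and its log2 fold changes of 0.14 to 0.31 were not called. *Obp99d* had 0.31 to 4.17 CPM in the mutants and was not called. The difference between these correlations was not tested.

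**Figure D4:**
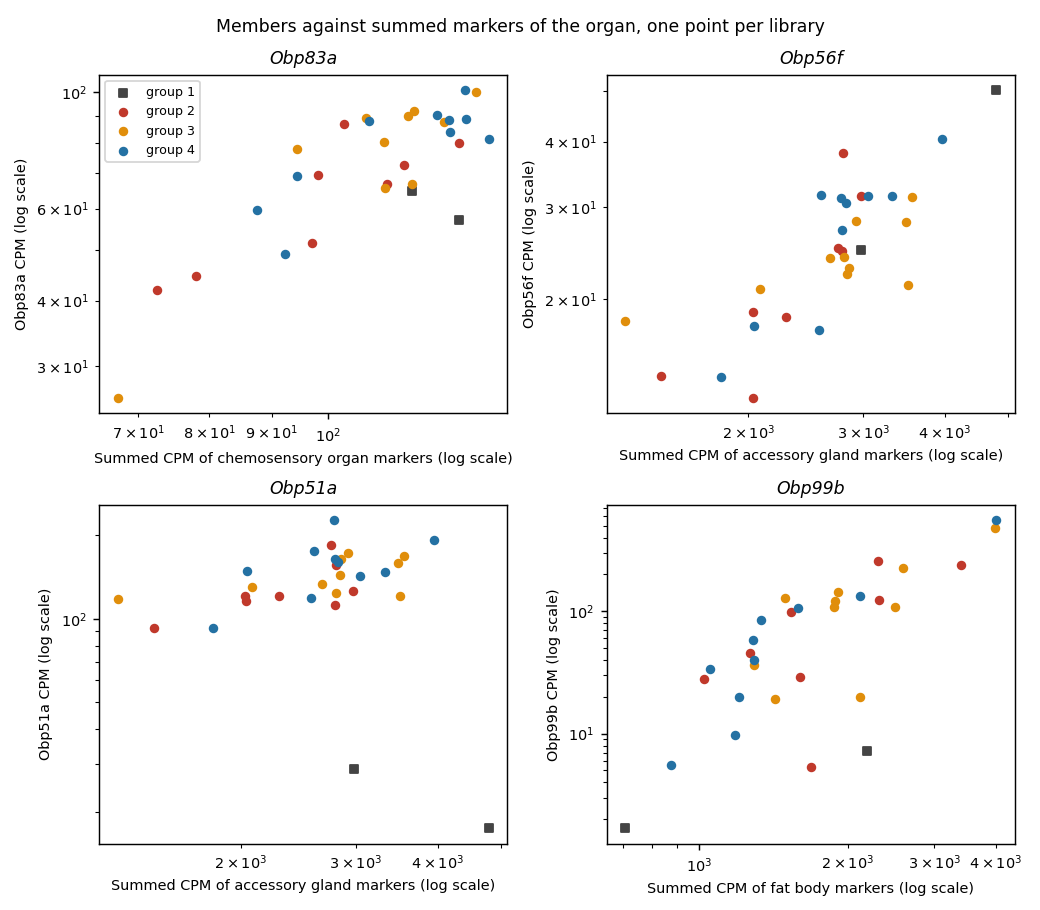
CPM of *Obp83a*, *Obp56f*, *Obp51a* and *Obp99b* in each of the 30 libraries against the summed CPM of the markers of chemosensory organs, male accessory gland (middle panels in reading order) and fat body, on logarithmic axes, with controls as squares and mutants as circles. Over the 28 mutants r was 0.87, 0.76, 0.60 and 0.77 in that order, and the 2 controls lie below the mutants for *Obp51a* at gland marker sums of 2978 and 4792 CPM.

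Each member was counted in 1 list only, by its main site or class, with *Obp49a* under taste and not under Plus-C. Of the 12 members on the Plus-C list 8 were tested, with *Obp50b* and *Obp50c* counted apart. Of these, 2, 2 and 3 rose in groups 2, 3 and 4, and none fell. The shares were 25%, 25% and 37.5%, where 10.7%, 14.2% and 17.5% of all genes rose. Those that rose, *Obp58c*, *Obp58d* and *Obp93a*, passed the filter only through mutant libraries. Their calls and p-values thus come from a test that they entered only because the mutants were high. With no filter on low counts they kept their calls. In that fit edgeR called *Obp46a*, a Plus-C member that the filter had removed, lower in all 3 groups (log2 −3.67, −3.73 and −3.03). The absence of falling Plus-C members thus holds only for those that passed the filter. *Obp58c* (2R:22705872-22706678, minus strand, BDGP6.54) had the smallest p of all members in each comparison with group 1. It had 11 and 2 counts in the controls, at 0.395 and 0.0724 CPM. Its lowest, median and highest levels were 3.70, 6.69 and 9.86 CPM in group 2, 5.26, 7.02 and 8.54 CPM in group 3 and 5.56, 7.78 and 9.43 CPM in group 4. The groups did not overlap, and the mutants were tight, with a coefficient of variation of 19.97%. *Obp58c* was 27.3-fold, 29.1-fold and 32.0-fold higher (log2 4.77 and 4.86 in groups 2 and 3, with an SE of 0.43 in each of the 3), with adjusted p of 5.8e-09, 2.8e-09 and 2.3e-09.

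*Obp58d*, which starts 255 bases away on the opposite strand, had 1 and 0 counts in the controls and 104, 87 and 119 counts over all libraries of groups 2, 3 and 4. Its median levels were 0.691, 0.354 and 0.549 CPM, and no mutant library was below 0.206 CPM. Scaled by total counts, the ratio to the controls was 38.7 (95% exact counting interval 6.79 to 1542) in group 2, 25.6 (4.47 to 1022) in group 3 and 35.9 (6.32 to 1430) in group 4. These intervals cover counting error only. The fitted log2 fold changes were 4.78 ± 0.83, 4.28 ± 0.82 and 4.63 ± 0.82, with adjusted p of 0.00022, 0.00053 and 0.00018.

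The change at *Obp58c* and *Obp58d* was not shared by every gene around them. Of 9 tested genes within 20 kb of *Obp58c*, 4 were called in one direction in all 3 groups, where 18% of all genes were. *Obp58d* and *CG30268* (log2 0.63 to 0.79) rose, and *CG30259* (−2.01 to −2.13) and *Ppa* (−0.83 to −1.16) fell. *Obp58b*, only 232 bases from *Obp58c*, had 0.718 or 0.398 CPM in the controls and 0.0751 to 0.986 CPM in the mutants, with log2 fold changes of −0.77, −0.69 and −0.33 that were not called. Over the 28 mutants *Obp58c* and *Obp58d* had an r of 0.54 (rho 0.51, adjusted p = 0.0075 and 0.018), and *Obp58b* and *Obp58c* had an r of 0.12 (adjusted p = 0.57).

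*Obp93a*, the remaining Plus-C member called, had 0.467 and 0.253 CPM in the controls, from 13 and 7 counts. The lowest, median and highest levels of the mutants were 0.535, 1.01 and 1.80 CPM in group 2, 0.459, 0.908 and 2.47 CPM in group 3 and 0.283, 1.09 and 2.80 CPM in group 4. Groups 3 and 4 overlapped with the controls. The log2 fold change was 1.58, 1.69 and 1.82 (SE 0.67), with adjusted p of 0.091, 0.058 and 0.037. The call in group 4 was lost without either control (adjusted p = 0.091 and 0.31), and *Obp93a* shares 492 bases of exon with *CG5793* on the opposite strand.

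*Obp56a* (2R:19697723-19698508, plus strand, BDGP6.54) was the 1 tested member that fell by edgeR with all libraries in the fit. limma-voom also called *Obp19c* lower in group 3 (log2 −0.98, adjusted p = 0.049) and *Obp56h* (−1.73, adjusted p = 0.032) and *Obp8a* lower in group 4. *Obp56a* had 77.6 and 26.2 CPM in the controls. In the mutants, the lowest, median and highest levels were 3.11, 5.23 and 9.38 CPM in group 2, 3.01, 7.62 and 11.9 CPM in group 3 and 3.23, 7.33 and 17.3 CPM in group 4. All 28 mutants were below both controls, which themselves differed by close to 3 times. *Obp56a* was 8.83-fold, 6.92-fold and 6.38-fold lower (log2 −3.14 ± 0.46, −2.79 ± 0.43 and −2.67 ± 0.44 SE), with adjusted p of 2.1e-05, 5.3e-05 and 7.7e-05. Of the 8 tested genes within 20 kb of it, among them *Obp56d*, *Obp56e* and *Obp56f*, 0 were called in all 3 groups. Of all genes, 18% were called in one direction in all 3. The digestive Jon proteases of the midgut were lower in the same groups, at a summed level of 4191 to 15990 CPM in the controls and 465 to 4738 CPM in the mutants, and their part in the fall of *Obp56a* was not tested.

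Of the 8 members under the filter, *Obp46a*, a Plus-C member, had 24 and 7 counts in the controls and at most 2 counts in any mutant library. All of groups 2, 3 and 4 held 6, 7 and 11 counts of it. Scaled by total counts, the ratio to the controls was 0.072, 0.066 and 0.11, with 95% exact counting intervals that ended at 0.175, 0.154 and 0.219. With no filter on low counts, edgeR gave *Obp46a* log2 fold changes of −3.67, −3.73 and −3.03 (adjusted p = 0.0027, 0.0014 and 0.0046). It was chosen for description after its values were seen. *Obp47a* had 1 and 6 counts in the controls, and 1, 2 and 0 counts in all of groups 2, 3 and 4. *Obp47b* had 0 counts in both controls and 6, 1 and 2 in the mutant groups, and a difference was not detectable at this depth. *Obp85a* had 1 count over both controls and 3, 1 and 5 in the mutant groups.

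No member passed the test between mutants that flew and mutants that did not, or between groups 2 and 3. In group 4 against group 3, edgeR called 0 of 43 members (0 at an unadjusted p under 0.05, against 8% of all genes) and 0% of all genes. In group 4 against group 2 it called 0 (0 unadjusted, against 12.1%), with 0% of all genes, and in group 3 against group 2 it called 0 (1 unadjusted, *Obp56d*, against 1.84%), with 0% of all genes. For flying mutants (group 4) against non-flying mutants (groups 2 and 3) it called 0 (1 unadjusted, against 13.6%), where 0.326% of all genes were called. These 43 genes, 10 of them ovary markers, rested on library GC055057. Without it edgeR called 0 of 13200 genes, and DESeq2 and limma-voom called 0 genes with all libraries. DESeq2 and limma-voom called 0 members in each of these comparisons. The median log2 difference of the members in group 4 against group 3 was 0.09, against 0.03 for all genes.

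The 5 members with the smallest p in group 4 against group 3 were *Obp73a*, *Obp19b*, *Obp83g*, *Obp44a* and *Obp19c*, with adjusted p from 0.67 to 0.74. *Obp73a*, a member with counterparts across insects, had 0.217 or 0.790 CPM in the controls. Its lowest, median and highest levels were 0.168, 0.4395 and 1.09 CPM in group 2, 0, 0.314 and 1.257 CPM in group 3 and 0, 0.139 and 0.543 CPM in group 4. The groups overlapped, and the log2 difference of group 4 against group 3 was −0.89 ± 0.54 SE (95% interval −1.95 to 0.17). *Obp73a* was also the 1 member with an unadjusted p under 0.05 in flying against non-flying mutants (log2 −0.99, p = 0.048 before and 0.37 after edgeR's Benjamini-Hochberg adjustment).

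The other 4 were higher in group 4 than in group 3 by 0.17 to 0.76 on the log2 scale, with overlapping groups. *Obp83g* had 0.215 and 5.39 CPM in the controls, a difference of 25 times between these 2 libraries. The lowest, median and highest levels of the mutants were 0.252, 8.04 and 23.4 CPM in group 2, 3.67, 6.40 and 16.6 CPM in group 3 and 0.523, 12.4 and 30.2 CPM in group 4. *Obp19b*, from taste organs, had medians of 31.8, 21.5, 28.9 and 37.9 CPM in groups 1 to 4, and its range in group 4 (26.2 to 56.9 CPM) lay within that of group 2 (16.8 to 78.8 CPM). The lowest, median and highest levels of *Obp44a* were 295, 322 and 531 CPM in group 3 and 278, 399 and 562 CPM in group 4. *Obp19c* had 0.540, 1.04 and 1.52 CPM in group 3 and 0.543, 1.14 and 4.28 CPM in group 4.

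For the members that rose or fell against the controls, the difference between flying and non-flying offspring was bounded as follows. The 95% interval of the log2 difference of group 4 against group 3 was −0.18 to 0.46 for *Obp58c*, −0.13 to 0.39 for *Obp51a*, −0.47 to 0.71 for *Obp56a* and −0.44 to 0.45 for *Obp99c*. For *Obp99b* it was −1.80 to 0.98.

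Adjacent members were compared over the 28 mutants, since many Obp genes lie in clusters. Of 23 adjacent pairs within 20 kb, 17 could be tested, with a median r of 0.38, and 8 had an adjusted p under 0.05 by both coefficients. The highest r was that of *Obp83a* and *Obp83b* (0.86, rho 0.74, adjusted p = 5.7e-05 and 8.5e-05), with 0.73 without the 2 farthest libraries and 0.79, 0.95 and 0.90 within groups 2, 3 and 4. *Obp83cd* and *Obp83ef* had an r of 0.82, but they share 92 bases of exon on opposite strands. *Obp57c* and *Obp57b*, 48 bases apart on the same strand, had an r of 0.81 (rho 0.74). Other pairs within 1 kb had low values, such as 0.12 for *Obp58b* and *Obp58c* and 0.02 for *Obp59a* and *Obp58b*.

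The receptors and other partners of the pathway were described by the same counts in groups 2, 3 and 4 against group 1. Of 31 tested odorant receptors, which sit on the olfactory neurons, 1, 4 and 3 rose and 1 fell in each. The shares called were 6.45%, 16.1% and 12.9%, where 20.2%, 26.5% and 33.2% of all genes were called. *Or1a* was higher (log2 2.35, 2.62 and 3.05) and *Or22b* lower (−2.34, −2.14 and −2.28). Of 31 tested gustatory receptors, 5 (16.1%) rose in each group and none fell, where 10.7%, 14.2% and 17.5% of all genes rose. *Gr22f* had a mean of 4.45 CPM in group 1 and 17.9, 19.5 and 19.9 CPM in groups 2, 3 and 4. Of 28 tested ionotropic receptors, 4, 3 and 2 rose and none fell, with *Ir94e* in each. The shares that rose were 14.3%, 10.7% and 7.14%, against the same 10.7%, 14.2% and 17.5% of all genes. Of *Orco* (the common co-receptor) and its 2 membrane partners, only *Snmp1* in group 2 was called, and it was lower.

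For the lists that follow, the edgeR shares of all genes called in groups 2, 3 and 4 against group 1 were 20.2%, 26.5% and 33.2%. The shares called lower were 9.52%, 12.3% and 15.7%. Of 20 CheA and CheB proteins, edgeR called 0 in each of the 3 comparisons (0 with p under 0.05 unadjusted), DESeq2 0, and limma-voom 1 in group 2. Of 6 other soluble carriers, edgeR called 0 (0, 0 and 1 unadjusted), DESeq2 0, and limma-voom 1 in group 4. Of 4 odorant-degrading enzymes, *Est-6*, an esterase of antenna and ejaculatory duct, fell by 1.43, 1.25 and 1.62 on the log2 scale, and *Ugt35B1*, an antennal glucuronosyltransferase, fell by 1.01, 0.87 and 1.04. In group 4 against group 3, edgeR, DESeq2 and limma-voom called 0 genes of any of these lists, with 3 odorant, 2 gustatory and 1 ionotropic receptor at an unadjusted p under 0.05 by edgeR.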

How the data were processed

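RNA from 30 whole-fly pools had been read on an Illumina platform from stranded total RNA libraries. The deposited table holds estimated counts, rounded to whole numbers, which the authors made with fastp 0.23.4, kallisto 0.44.0 on BDGP6.46 and tximport 1.26.1. The labels' processing notes name kallisto 0.45.0 and GRCh38 instead. The study's methods describe the tximport values given to limma as length-scaled, and do not say whether the deposited counts are these same values.

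The whole table was tested with edgeR 4.0.16 under R 4.3.3 (filterByExpr, TMM, robust quasi-likelihood F-test, all 30 libraries in 1 fit, Benjamini-Hochberg adjustment over 13190 genes, threshold 0.05). The standard error is the log2 fold change over the square root of F, and 95% intervals are normal. The script was tested on simulated data. Correlations used log2(CPM + 1) and 100000 permutations, which give a smallest p of 1e-05. Alternatives were DESeq2 1.42.0, limma-voom 3.58.1, other scaling, filters and subsets of libraries.

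Values are given in full for members called in all 3 mutant groups with both controls outside the mutant range, the 5 smallest p in group 4 against group 3, the 5 highest levels per length, and up to 3 members with 0 counts in 3 to 27 libraries. *Obp59a*, *Obp93a*, *Obp99a*, *Obp46a* and other members with values were chosen after these were seen. Members, roles and lists were chosen with earlier results of these data known. The p-values against group 1 use 1 estimate of the spread per gene from all 30 libraries, which comes mostly from the 28 mutant pools. The spread between control pools is poorly known from 2 libraries. No sequences were printed, and gene positions come from BDGP6.54.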

Additional observations from a re-analysis of the deposited data

Results flagged for a closer look

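Among 15 members, 45 groups of 8 or 10 libraries were tested for a library far from the others by Dixon's criterion, and 4 stood out, where chance alone marks about 1 in 20 groups. *Obp99b* was at 478.2 CPM in library GC055058 of group 3, with the next library at 227.2 CPM, and at 554.7 CPM in library GC055061 of group 4, with the next at 133.7 CPM. Both libraries had the highest summed fat body markers of their group, at 3997 and 4014 CPM. *Obp19c* was at 4.282 CPM in library GC055057 of group 4, with the next at 1.555 CPM, and that library had 6287 CPM of summed ovary markers. *Obp56g* was at 1190.1 CPM in library GC055069 of group 4, with the next at 846.4 CPM, and that library had the highest summed accessory gland markers of its group, at 3953 CPM. The part of these tissues in the 4 values was not tested.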

How the results depend on the processing

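The 21 calls of single members against group 1 gave 228 pairs of a call and an alternative fit. All pairs kept the direction, and 206 also kept the call, while 22 lost it. The pairs come from a small set of fits that reuse the same libraries and controls, so that they are not independent. The lost calls belonged to *Obp99c*, *Obp99a*, *Obp99b*, *Obp59a* and *Obp93a*. *Obp58c*, *Obp51a* and *Obp56a* were called in every refit, and *Obp58d* in every refit that tested it (not with at least 1 CPM in 10 libraries). Without 1 control, the number of members called was 4 to 6 in group 2, 4 to 7 in group 3 and 5 to 7 in group 4, against 5, 7 and 9. In groups 3 and 4 the lowest counts, 4 and 5, came without GC055040. The share of all genes called moved further, from 20.2%, 26.5% and 33.2% to 9.47%, 11.4% and 16.7% without GC055040 and to 5.15%, 5.81% and 8.28% without GC055041. With no filter on low counts, *Obp46a* and *Obp47a* were added in all 3 groups. Without library GC055057, 6, 8 and 10 members were called, with *Obp19d* added in group 2 and *Obp19c* in groups 3 and 4, while the share of all genes called was 27%, 36.2% and 43.5%. Without GC055058 and GC055061, an alternative chosen after the data were seen, 6, 8 and 8 were called. Fitting only the groups compared gave 5, 10 and 6 calls, with 11.6%, 37.6% and 24.8% of all genes called (losing *Obp99c* and adding *Obp56d* in group 2, adding *Obp56f*, *Obp83ef* and *Obp8a* in group 3 and losing *Obp59a*, *Obp93a* and *Obp99b* in group 4). The cause of these shifts was not tested. The median log2 fold change of all genes in group 4 moved to 0.133 without GC055040 and to 0.103 without the 6 libraries labelled human skin. With coding length, *Obp56g* and *Obp99c* were nearly level at 1622 and 1616 CPM per kb, *Obp44a* had 882, and *Obp19d* rose from 180 to 441 CPM per kb, past *Obp51a* (388) and *Obp99b* (244). In the comparisons among mutants 0 members were called in every refit. No paired analysis was possible because the labels tie no library of one group to a library of another. Depth limits the members with under 10 counts per library.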
